A study of Mus musculus with 12 samples.

Results

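The lysosomal hydrolases, membrane proteins and proton pump were followed in ARG1+ and ARG1- microglia as 45 genes fixed by name, of 55487 genes in the count table. They comprise 18 acid hydrolases, 4 cofactors of the lumen (*Psap*, *Gm2a*, *Grn* and *Npc2*), 9 proteins of the lysosomal or endosomal membrane and 14 genes of the vacuolar proton pump (V-ATPase), of which 5 encode the membrane sector V0, 7 the cytosolic sector V1 and 2 its accessory proteins. All 45 passed the filter on low counts. The samples were 12 RNA-seq libraries of microglia, 3 libraries each of ARG1+ females, ARG1+ males, ARG1- females and ARG1- males, taken at postnatal day 13 from the basal forebrain and striatum of YARG mice. Both populations came from YARG animals, in which YFP is placed behind the stop codon of *Arg1*, so ARG1+ and ARG1- stand for cells sorted with and without YFP among CX3CR1-positive, CD206-negative cells, and not for a deletion or a treatment. Tissue of several brains was pooled for each library, and replicates came from separate litters. ARG1+ and ARG1- cells were separated by a gate on the same tissue, so the populations of a sex can share litters. The labels do not tie an ARG1+ library to an ARG1- library, and the tests treat the 12 libraries as independent.

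A lysosome breaks down material that a phagocyte takes up or that autophagy delivers. Its hydrolases work in the acidic lumen, several of them with lumenal cofactors that present lipids or stabilize the enzyme, and the acid is made by the V-ATPase, in which the V1 sector splits ATP and turns a rotor that carries protons through the V0 sector. Heavily glycosylated membrane proteins line the compartment, and channels and transporters exchange ions and products with the cytosol. Microglia are the resident phagocytes of the brain and carry abundant lysosomes.

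Total counts lay between 28356659 and 60625170 per library, which puts 3 counts at 0.0511 to 0.102 CPM (the count of a gene scaled to the TMM-normalized size of its library). *Arg1*, the gene behind the sort, had 1 read in 1 of the 12 libraries, an ARG1+ female library, so the sort labels could not be checked by its transcript. The 10 microglia markers summed to 48478 to 64309.8 CPM in ARG1- and 38157 to 49004 CPM in ARG1+ libraries. Of the 10, 7 were called lower and 1 was called higher in ARG1+ microglia, where 9.42% and 6.44% of all genes tested were. Oligodendrocyte markers summed to 265 to 388 CPM in ARG1- and 171 to 266 CPM in ARG1+ libraries, astrocyte markers to 186 to 233 and 131 to 155 CPM, neuronal markers to 4.5 to 28.6 and 2.31 to 11.8 CPM, border macrophage markers to 119.5 to 144 and 119 to 253 CPM, monocyte markers to 5.12 to 14.1 and 3.7 to 7.76 CPM, and endothelial markers to 30.5 to 58.8 and 44.8 to 84.2 CPM. Single genes carried most of several sums, with mean levels in ARG1- and ARG1+ microglia of 121 and 147 CPM for *Mrc1* (border macrophage), 176 and 131 CPM for *Slc1a3* (astrocyte), 194 and 133 CPM for *Cnp* (oligodendrocyte) and 36.5 and 53.1 CPM for *Pecam1* (endothelial), while *Cd209f* and *Cldn5* had no count. Of 9 neutrophil markers, 8, among them *S100a8* and *S100a9*, lay between 0 and 1.84 CPM in every library, and *Csf3r*, at 292 to 363 CPM in ARG1- and 331 to 506 CPM in ARG1+ libraries, was not called. Among transcripts known to hold detained introns, a sign of unspliced nuclear RNA, the sum was 2039 to 3807 CPM in ARG1- and 4521 to 6279 CPM in ARG1+ libraries. Of these 12 transcripts, 5 were called higher, where 6.44% of all genes tested were. *Rsrp1* carried much of this sum, with means of 1055 CPM in ARG1- and 2589.5 CPM in ARG1+ microglia. Immediate early genes, which dissociation can raise, summed to 246 to 405 and 316 to 375 CPM. Of the 7 tested, 2 were called higher and 0 lower, with a median log2 fold change of 0.80. Those higher were *Egr1* (1.31, edgeR adjusted p = 0.00825) and *Atf3* (0.99, edgeR adjusted p = 0.0401). The part of the marker, detained intron and immediate early genes in the differences given here was not tested. In such bulk samples, fewer cells of a type and less RNA per cell cannot be told apart.

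The 45 genes were strongly expressed in both populations. Their summed level was 29211 ± 4139 CPM (SD, n = 6) in ARG1- microglia and 29852 ± 1788 CPM (SD, n = 6) in ARG1+ microglia, and the ranges over libraries, 23224 to 35984 and 27179 to 32381 CPM, overlapped. *Laptm5*, a lysosomal membrane protein of hematopoietic cells, held 18.8% of this sum in ARG1- microglia, and *Grn*, the gene of progranulin, held 13.7%. Per length of exon, which allows genes to be compared, the order in ARG1- microglia began with *Laptm5* at 1448 ± 264 CPM per kilobase, *Grn* at 1151 ± 218 and *Cd68* at 919 ± 110.3 (SD, n = 6). It ended with *Gla* at 2.28 ± 0.671, *Sgsh* at 2.1 ± 1.35 and *Atp6v0d2* at 0.107 ± 0.177 CPM per kilobase. Levels of the members therefore spanned several orders of magnitude in the same cells.

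**Figure D1:**
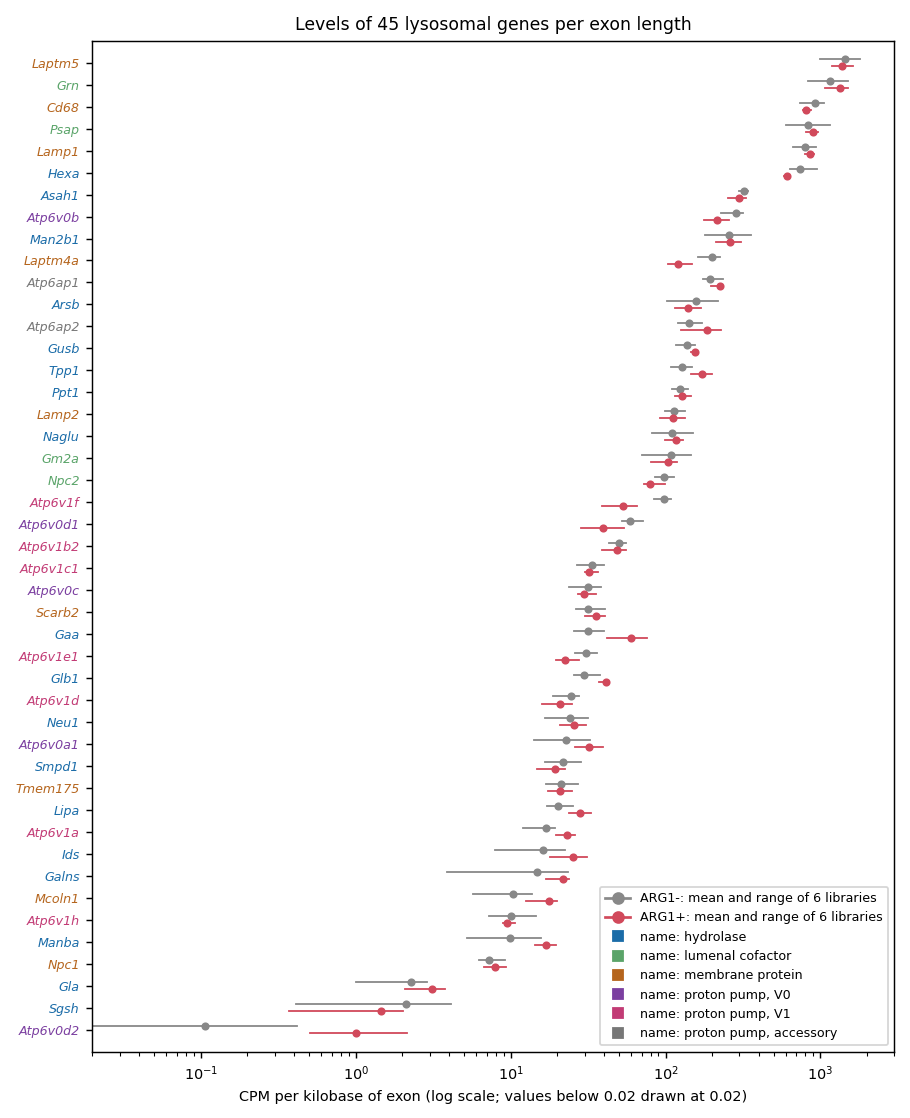
Mean level of each of the 45 genes in CPM per kilobase of annotated exon (log axis) in ARG1- (grey) and ARG1+ (red) microglia, with bars from the lowest to the highest of 6 libraries and gene names colored by role. The populations overlap for most genes, and *Atp6v0d2*, at 0.107 CPM per kilobase in ARG1- microglia, stands at the bottom of the order.

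To find which parts of the lysosome differed between the populations, each gene was tested over all 12 libraries with sex as a second term (edgeR quasi-likelihood test, Benjamini–Hochberg adjustment over 16908 genes, limit 0.05). Of the 45 members, 8 were called higher in ARG1+ microglia and 5 lower, or 28.9% in either direction, where 15.9% of all genes tested were called. The share called higher was 17.8% of members against 6.44% of all genes, and the share called lower was 11.1% against 9.42%. All members but *Atp6v0d2* had at least 10 counts in every library, which many of the genes tested did not. *Atp6v0d2* passed the filter only through its ARG1+ libraries, so it could be called higher but not lower, and it is among the 8. Among the 11633 genes with such counts, fitted alone, 1282 were called higher and 1571 lower. Both are larger shares than over all genes tested. The share lower there is above the 11.1% of members, and the share higher is below the 17.8%. The part of expression level in the shares of members was not tested. The median log2 fold change was 0.04 over the members and 0.06 over all genes tested. The members called higher were the hydrolases *Gaa*, *Tpp1*, *Glb1*, *Lipa* and *Manba*, the channel *Mcoln1*, and the pump subunits *Atp6v1a* and *Atp6v0d2*. Those called lower were *Laptm4a* in the membrane and the pump subunits *Atp6v1f*, *Atp6v0d1*, *Atp6v1e1* and *Atp6v0b*. By role, 5 of 18 hydrolases were higher and 0 lower, 0 of 4 lumenal cofactors were called, 1 of 9 membrane proteins was higher and 1 lower, and 2 of 14 pump genes were higher and 4 lower. Of the 18 hydrolases, 1 (*Hexa*) was lower at an unadjusted p under 0.05, and DESeq2 without a prior also called 0 of them lower over both sexes. Every ARG1+ library lay above every ARG1- library for 3 members (3.48% of all genes tested) and below for 3 (6.56% of all genes tested).

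**Figure D2:**
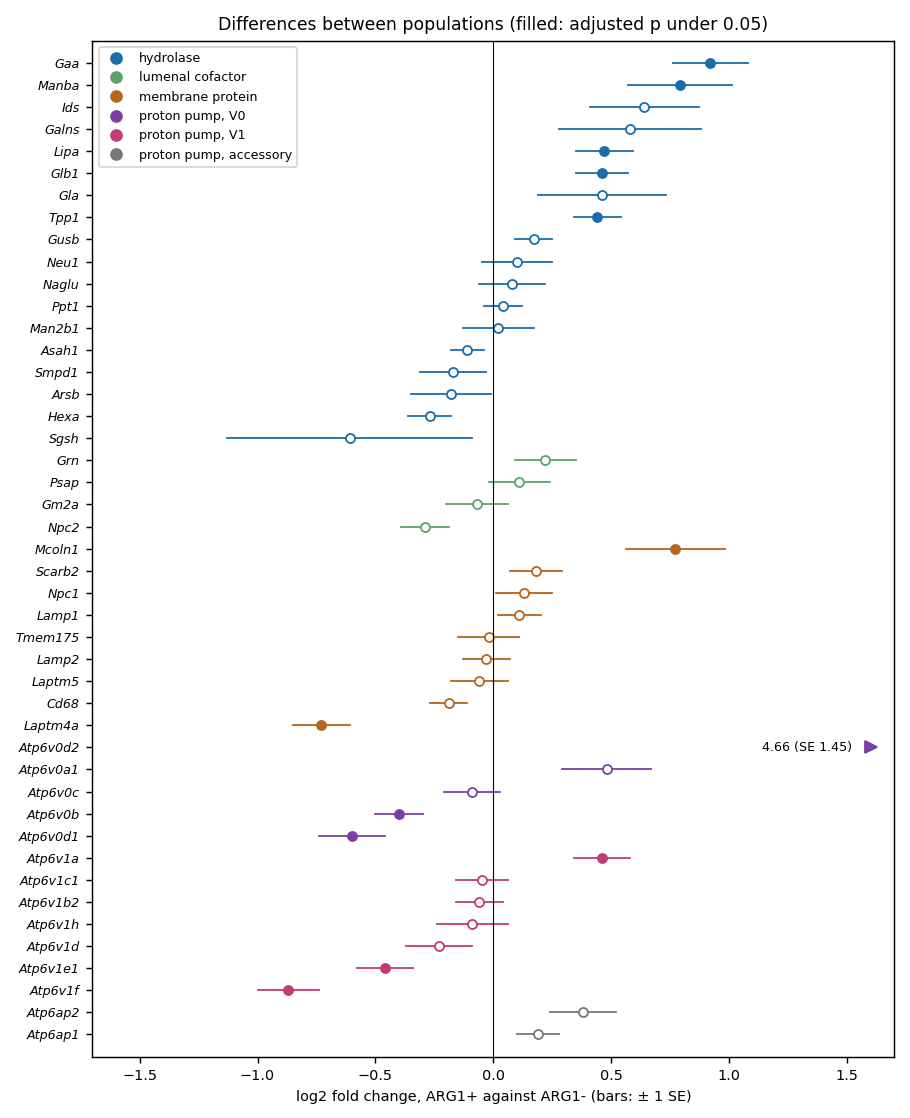
Log2 fold change of ARG1+ against ARG1- microglia for each of the 45 genes, grouped and colored by role, with bars of 1 SE (edgeR, 12 libraries) and filled symbols at an adjusted p under 0.05. The 5 filled hydrolases lie to the right of zero, 4 of the 6 filled pump subunits lie to the left, and *Atp6v0d2* (4.66, SE 1.45) is drawn as an arrow at the edge.

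Many lysosomal genes carry in their promoter the palindrome CACGTG, the core of the coordinated lysosomal expression and regulation element that basic helix-loop-helix factors such as TFEB can bind. The 300 bases from 250 before to 50 after the RefSeq start of transcription (GRCm38.p6) were available for 38 of the 45 members, and both strands of the palindrome read alike. CACGTG stood in the window of 10 of these 38 members (26.3%) and of 8.09% of 27025 genes in the RefSeq table. Its extension TCACGTGA, which contains CACGTG and is also a palindrome, stood in 4 members (10.5%), *Gla*, *Mcoln1*, *Atp6v0d1* and *Atp6v1a*, and in 1.12% of all genes. By result, CACGTG stood in 4 of 7 members called higher, 2 of 5 called lower and 4 of 26 not called. The windows of the 3 called members with the longer form are shown 5′ to 3′ on the strand of the gene, with TCACGTGA in capitals, because they include 2 genes that were higher (*Atp6v1a* and *Mcoln1*) and 1 that was lower (*Atp6v0d1*).
Atp6v1a (chr16:44139210-44139509, minus strand): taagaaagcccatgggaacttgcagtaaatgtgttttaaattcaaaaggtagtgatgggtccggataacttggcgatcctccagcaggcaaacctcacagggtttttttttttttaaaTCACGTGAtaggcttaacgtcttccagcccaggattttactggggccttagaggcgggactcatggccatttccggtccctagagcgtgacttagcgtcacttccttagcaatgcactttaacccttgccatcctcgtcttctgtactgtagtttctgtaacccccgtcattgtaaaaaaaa
Mcoln1 (chr8:3500269-3500568, plus strand): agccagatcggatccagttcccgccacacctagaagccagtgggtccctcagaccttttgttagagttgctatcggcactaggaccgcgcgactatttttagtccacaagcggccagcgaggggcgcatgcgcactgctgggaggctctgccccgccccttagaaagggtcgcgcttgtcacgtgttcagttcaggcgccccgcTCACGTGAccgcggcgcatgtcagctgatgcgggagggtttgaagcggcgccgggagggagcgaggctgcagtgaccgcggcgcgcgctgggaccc
Atp6v0d1 (chr8:105566015-105566314, minus strand): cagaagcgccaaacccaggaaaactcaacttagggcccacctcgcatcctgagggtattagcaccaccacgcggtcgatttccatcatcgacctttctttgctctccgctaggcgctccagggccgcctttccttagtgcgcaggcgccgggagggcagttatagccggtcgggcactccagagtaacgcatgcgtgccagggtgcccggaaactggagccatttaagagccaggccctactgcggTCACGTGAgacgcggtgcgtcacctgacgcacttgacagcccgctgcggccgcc
Counted from the start of transcription to the base just right of the centre of the palindrome, the longer form lay at -128 in *Atp6v1a*, at -42 in *Mcoln1*, which held a second CACGTG at -68, and at 0 in *Atp6v0d1*. These are matches of letters and not measured binding, and members that were higher and members that were lower both held them. The part of the motif in the differences between the populations was not tested.

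Among the hydrolases, 5 of 18 were higher in ARG1+ microglia, with a median log2 fold change of 0.13 over all 18. *Gaa* (ENSMUSG00000025579, chr11:119267887-119285454, positions in GRCm38 from GENCODE throughout) encodes the acid alpha-glucosidase that breaks down glycogen. Its level ran from 123 through a median of 145 to 192 CPM in the 6 ARG1- libraries and from 202 through 281 to 364 CPM in the 6 ARG1+ libraries. No ARG1+ library reached down to an ARG1- library, and *Gaa* was 1.9-fold higher in ARG1+ microglia (0.92 ± 0.16 on the log2 scale, SE, edgeR adjusted p = 0.00314). *Tpp1* (chr7:105744811-105752235), a serine protease that removes tripeptides from the ends of proteins, lay between 557 and 768 CPM (median 659.6) in ARG1- and between 753 and 1020.0 CPM (median 895) in ARG1+ microglia. The lowest ARG1+ library overlapped the highest ARG1- library, and the log2 fold change was 0.44 ± 0.10 (SE, edgeR adjusted p = 0.011). *Glb1* (chr9:114401076-114474898), the lysosomal beta-galactosidase, ranged from 76.9 to 114 CPM (median 86.2) in ARG1- and from 112 to 129.6 CPM (median 126) in ARG1+ microglia, a log2 fold change of 0.46 ± 0.11 (SE, edgeR adjusted p = 0.0125). *Glb1* shares 5.49% of its exon length with *Tmppe* on the same strand, and reads there cannot be told apart.

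*Lipa* (chr19:34492318-34527474), the acid lipase that frees cholesterol and fatty acids from lipoprotein lipids, spanned 117 to 172 CPM (median 134) in ARG1- and 162 to 225 CPM (median 193) in ARG1+ microglia. The populations overlapped slightly, with a log2 fold change of 0.47 ± 0.12 (SE, edgeR adjusted p = 0.0191), and the call was lost when the dependence on gene length and GC was taken out library by library (log2 fold change 0.37, adjusted p = 0.0871). *Manba* (chr3:135485611-135571404), the beta-mannosidase that trims glycoprotein sugars, ranged from 36.2 to 109 CPM (median 69) in ARG1- and from 100.5 to 136 CPM (median 119) in ARG1+ microglia. It was wide in ARG1- and narrow in ARG1+ libraries, and its log2 fold change was 0.79 ± 0.22 (SE, edgeR adjusted p = 0.0321). This call lay near the limit and was kept in 6 of 12 fits that left out 1 library each. In the others, the adjusted p of *Manba* was 0.0625 without ARG1+ female 8, 0.0693 without ARG1+ male 12, 0.0668 without ARG1+ male 16, 0.0621 without ARG1- female 13, 0.0515 without ARG1- female 2 and 0.0551 without ARG1- male 14. Over all 12 fits its log2 fold change stayed between 0.64 and 0.96.

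The 13 other hydrolases were not called, with log2 fold changes from -0.61 to 0.64 and a smallest adjusted p of 0.0671. That value belonged to *Hexa* (chr9:59539540-59565109), the alpha subunit of beta-hexosaminidase, which lay between 1273 and 1901 CPM (median 1419) in ARG1- and between 1161 and 1260.3 CPM (median 1203) in ARG1+ microglia. All 6 ARG1+ libraries stood below all 6 ARG1- libraries, by a log2 fold change of -0.27 (SE 0.09) that did not pass the limit. Within females *Hexa* was called lower (-0.43, edgeR adjusted p = 0.0495), with -0.11 in males (edgeR adjusted p = 0.627) and no call for the difference (adjusted p = 0.586). The female call came from the fit of 4 group means, lay at the limit, and was absent in the 6 female libraries alone. ARG1- female 1 was the library at 1901 CPM. *Hexa* shares 12.8% of its exons with *Tmem202* on the opposite strand, and the library kit does not mark strand, so reads there cannot be assigned. *Ids*, which removes sulfate from heparan and dermatan sulfate, had the largest fitted value of those not called, 0.64 ± 0.23 (SE, edgeR adjusted p = 0.0775). Its lowest, median and highest levels were 40.4, 81.8 and 115 CPM in ARG1- and 92, 133 and 159.9 CPM in ARG1+ microglia, which overlap, and it did pass without ARG1- male 5 (adjusted p = 0.0397). The others were *Galns* (0.58), *Gla* (0.46), *Gusb* (0.17), *Neu1* (0.10), *Naglu* (0.08), *Ppt1* (0.04), *Man2b1* (0.02), *Asah1* (-0.11), *Smpd1* (-0.17), *Arsb* (-0.18) and *Sgsh* (-0.61). *Sgsh* was low, at 1.81 to 18.2 CPM in ARG1- and 1.65 to 8.95 CPM in ARG1+ libraries, and its 95% interval of the log2 fold change, -1.63 to 0.41, was the widest of the hydrolases. Exons of *Sgsh* (21.6% with *Card14*), *Ppt1* (3.51% with *Cap1*) and *Arsb* (32.3% with *Gm26527*) also overlap a gene on the other strand.

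None of the 4 lumenal cofactors was called in edgeR or in DESeq2 without a prior (1 of 4 at an unadjusted p under 0.05). *Grn* (chr11:102430315-102437048), whose product progranulin is cut into granulins in the lysosome, ranged from 2897 to 5192 CPM (median 4048) in ARG1- and from 3715 to 5219 CPM (median 4852) in ARG1+ microglia. The ranges overlapped almost wholly and the log2 fold change was 0.22 ± 0.13 (SE, 95% interval -0.03 to 0.48, edgeR adjusted p = 0.292). *Psap* (chr10:60277627-60302597), the precursor of the saposins that lift sphingolipids out to their hydrolases, ranged from 1639 to 3159 CPM (median 2310.1) and from 2208 to 2642 CPM (median 2476), a log2 fold change of 0.11 ± 0.13 (SE, 95% interval -0.14 to 0.36, edgeR adjusted p = 0.634). *Npc2* (chr12:84754562-84773152), which carries cholesterol through the lumen, lay at 468 to 621 CPM (median 523) in ARG1- and 393 to 539 CPM (median 415) in ARG1+ microglia. Its log2 fold change of -0.29 ± 0.10 (SE, edgeR adjusted p = 0.0648) passed the limit without ARG1+ male 11 (-0.35, adjusted p = 0.015), the library in which *Npc2* was the highest of its population. *Gm2a*, the activator protein for ganglioside breakdown, had a log2 fold change of -0.07 (SE 0.13).

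The classical markers of the lysosomal membrane were near each other in the populations. *Lamp1* (chr8:13159161-13175338) ranged from 1776 to 2521 CPM (median 2124) in ARG1- and from 2133 to 2424 CPM (median 2259) in ARG1+ microglia, a log2 fold change of 0.11 ± 0.09 (SE, 95% interval -0.06 to 0.28, edgeR adjusted p = 0.438). *Lamp2* (chrX:38401357-38456454), which also serves chaperone-mediated autophagy, ranged from 953 to 1274 CPM (median 1109) and from 883 to 1276 CPM (median 1094), a log2 fold change of -0.03 ± 0.10 (SE, 95% interval -0.22 to 0.16, edgeR adjusted p = 0.881). *Cd68* (chr11:69664213-69666153), a macrophage relative of the LAMP proteins used as a marker of phagocytic microglia, ranged from 930.4 to 1323 CPM (median 1165) and from 965 to 1085 CPM (median 997). ARG1+ libraries lay within a narrow band inside the spread of the ARG1- libraries, whose low end was ARG1- male 14 alone. The other ARG1- libraries were at 1084 CPM or more, which only ARG1+ male 11 reached. The log2 fold change of *Cd68* was -0.19 ± 0.08 (SE, 95% interval -0.36 to -0.03, edgeR adjusted p = 0.142). It was 0.00 with the dependence on gene length and GC taken out (edgeR adjusted p = 0.983). Within females, *Cd68* was called lower (-0.37, edgeR adjusted p = 0.0377), and in males its log2 fold change was -0.02 (edgeR adjusted p = 0.948), a difference between the sexes that did not pass the limit (adjusted p = 0.486). Over both sexes the intervals of these 3 genes reach a difference of 0.36 on the log2 scale, and a missed limit does not show equal levels. *Lamp1* shares 9.31% of its exons with *Grtp1* on the other strand.

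Within the membrane group, *Mcoln1* was higher and *Laptm4a* was lower. *Mcoln1* (ENSMUSG00000004567, chr8:3500457-3515232), whose promoter is printed above, encodes TRPML1, the channel that releases calcium from the lysosome. Its lowest, median and highest levels were 43.3, 85.1 and 105 CPM in ARG1- and 95.1, 145 and 151 CPM in ARG1+ microglia. ARG1+ female 15, at 95.1 CPM, lay within the ARG1- range, and the log2 fold change was 0.77 ± 0.21 (SE, edgeR adjusted p = 0.0276). The adjusted p of *Mcoln1* was 0.0575 without ARG1+ female 7, 0.0548 without ARG1+ female 8, 0.0571 without ARG1+ male 12 and 0.0615 without ARG1- female 2, with log2 fold changes from 0.66 to 0.89 over all libraries left out in turn. *Laptm4a* (ENSMUSG00000020585, chr12:8921664-8938742), a small protein with several membrane spans in late endosomes and lysosomes, ranged from 288 to 399 CPM (median 367) in ARG1- and from 184 to 263 CPM (median 210.0) in ARG1+ microglia. Its populations did not overlap, and it was 1.66-fold lower in ARG1+ microglia (-0.73 ± 0.12 on the log2 scale, SE, edgeR adjusted p = 0.00211). Its relative *Laptm5*, the most abundant member, was not called (log2 fold change -0.06, SE 0.12, adjusted p = 0.79). The remaining membrane proteins, *Scarb2* (0.18), *Npc1* (0.13) and *Tmem175* (-0.02), were not called, and 35.3% of the exon length of *Tmem175* is shared with *Dgkq* on the other strand.

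The proton pump held 4 of the 5 members called lower. Of its 14 genes, 6 were called (42.9%, against 15.9% of all genes tested), with a median log2 fold change of -0.08 over the 14. The 2 higher were 14.3% and the 4 lower 28.6%, against 6.44% and 9.42% of all genes. Subunits of one complex were thus found on both sides of zero. *Atp6v1f* (ENSMUSG00000004285, chr6:29467718-29470512), the F subunit of the central rotor in V1, had the smallest p of all members. It lay between 90.0 and 115 CPM (median 104) in ARG1- and between 41.4 and 69.8 CPM (median 55.5) in ARG1+ microglia, without overlap, and was 1.83-fold lower (-0.87 ± 0.13 on the log2 scale, SE, edgeR adjusted p = 0.00145). *Atp6v1e1* (chr6:120794305-120822793), the E subunit of the outer stalk that holds V1 still, ranged from 107 to 148 CPM (median 122) and from 80.9 to 113 CPM (median 88.4), a log2 fold change of -0.46 ± 0.12 (SE, edgeR adjusted p = 0.0179). Only ARG1+ male 11, at 113 CPM, overlapped the ARG1- libraries. The adjusted p of *Atp6v1e1* rose to 0.0518 without ARG1+ female 15, 0.0608 without ARG1+ female 7, 0.0618 without ARG1+ female 8, 0.0529 without ARG1+ male 12 and 0.0506 without ARG1+ male 16.

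In contrast, *Atp6v1a* (ENSMUSG00000052459, chr16:44085402-44139705), the catalytic A subunit of V1 whose promoter is printed above, was higher in ARG1+ microglia. Its levels were 72.5 to 118 CPM (median 104) in ARG1- and 119 to 158 CPM (median 140.1) in ARG1+ libraries. The ranges met without overlapping, and the log2 fold change was 0.46 ± 0.12 (SE, edgeR adjusted p = 0.0226). The other V1 genes were not called: *Atp6v1b2* (B subunit, -0.06), *Atp6v1c1* (C, -0.05), *Atp6v1h* (H, -0.09) and *Atp6v1d* (D, -0.23). The 7 V1 genes summed to 997 ± 75.3 CPM (SD, n = 6) in ARG1- and 914 ± 49.8 CPM (SD, n = 6) in ARG1+ microglia, with overlapping libraries.

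In the V0 sector, *Atp6v0b* (chr4:117884326-117887333), a subunit of the proton-carrying ring, ranged from 471 to 644 CPM (median 595) in ARG1- and from 364 to 525 CPM (median 438) in ARG1+ microglia, a log2 fold change of -0.40 ± 0.10 (SE, edgeR adjusted p = 0.0187). The adjusted p of *Atp6v0b* was 0.0593 with no filter on low counts, 0.0651 without ARG1+ female 7, 0.0596 without ARG1+ female 8, 0.0606 without ARG1+ male 12 and 0.0618 without ARG1+ male 16, and 11.8% of its exons lie over the antisense gene *Gm12841*. *Atp6v0d1* (chr8:105524465-105566047) encodes the widely used d1 subunit, which couples the rotor to the ring. It lay between 94.3 and 128 CPM (median 103) in ARG1- and between 51 and 97.2 CPM (median 72.5) in ARG1+ microglia. ARG1+ male 11, at 97.2 CPM, reached the lowest ARG1- libraries, and the log2 fold change was -0.60 ± 0.14 (SE, edgeR adjusted p = 0.0111).

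*Atp6v0d2* (ENSMUSG00000028238, chr4:19876841-19922605), the second d subunit, known from osteoclasts and other myeloid cells, went the other way at a far lower level. It had 0 counts in 4 of 6 ARG1- libraries and 38 and 35 counts in the others, ARG1- female 1 and 13, against 48 to 203 counts in the 6 ARG1+ libraries. In CPM the ARG1- libraries ran from 0 to 1.14 and the ARG1+ libraries from 1.39 through a median of 2.29 to 5.78, so every ARG1+ library stood above every ARG1- library. *Atp6v0d2* passed the filter on low counts only through the ARG1+ libraries, so a call in the other direction was not open to it. The fitted log2 fold change of 4.66 ± 1.45 (SE, edgeR adjusted p = 0.0463) leans on the libraries at 0, and the log2 ratio of the mean CPM was 3.23. Of 12 fits that left out 1 library each, 2 kept the call (without ARG1+ female 8, adjusted p = 0.0484, and without ARG1- female 1, 0.0267), and over the 10 that lost it the adjusted p of *Atp6v0d2* ran from 0.0517 without ARG1+ female 7 to 0.0938 without ARG1+ female 15. The call was also lost without the sex term (3.21, adjusted p = 0.115), with a term for libraries 13 to 16 (adjusted p = 0.0636), with no filter (adjusted p = 0.0557) and in DESeq2 with a beta prior (0.77, adjusted p = 0.1). Per length of exon, *Atp6v0d2* was 0.187% of the sum of both d subunits in ARG1- microglia (0 to 0.747% by library) and 2.52% in ARG1+ microglia (0.932 to 4.72%). *Atp6v0d1* thus remained the main d transcript in each of the 12 libraries.

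Neither *Atp6v0a1* (a1 subunit, 0.48, SE 0.19, adjusted p = 0.115) nor *Atp6v0c* (ring subunit, -0.09, SE 0.12) was called. *Atp6v0a1* passed the limit without ARG1- female 1 (adjusted p = 0.0364), in which it was the highest of its population, and *Atp6v0c* has 2 pseudogenes in the annotation with which it may share reads. The accessory proteins, which help assemble and traffic the pump, were not called either. *Atp6ap1* had a log2 fold change of 0.19 ± 0.09 (SE, edgeR adjusted p = 0.16) and *Atp6ap2*, also known as the prorenin receptor, of 0.38 ± 0.14 (SE, edgeR adjusted p = 0.0808), and *Atp6ap2* passed without ARG1+ male 12 (adjusted p = 0.0155) or without ARG1- male 6 (0.047). Both were called in DESeq2 without a prior, with an adjusted p of 0.0289 for *Atp6ap1* and 0.0275 for *Atp6ap2*. *Atp6ap2* ranged from 314 to 452 CPM (median 368) in ARG1- and from 329.6 to 596 CPM (median 497) in ARG1+ libraries.

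**Figure D3:**
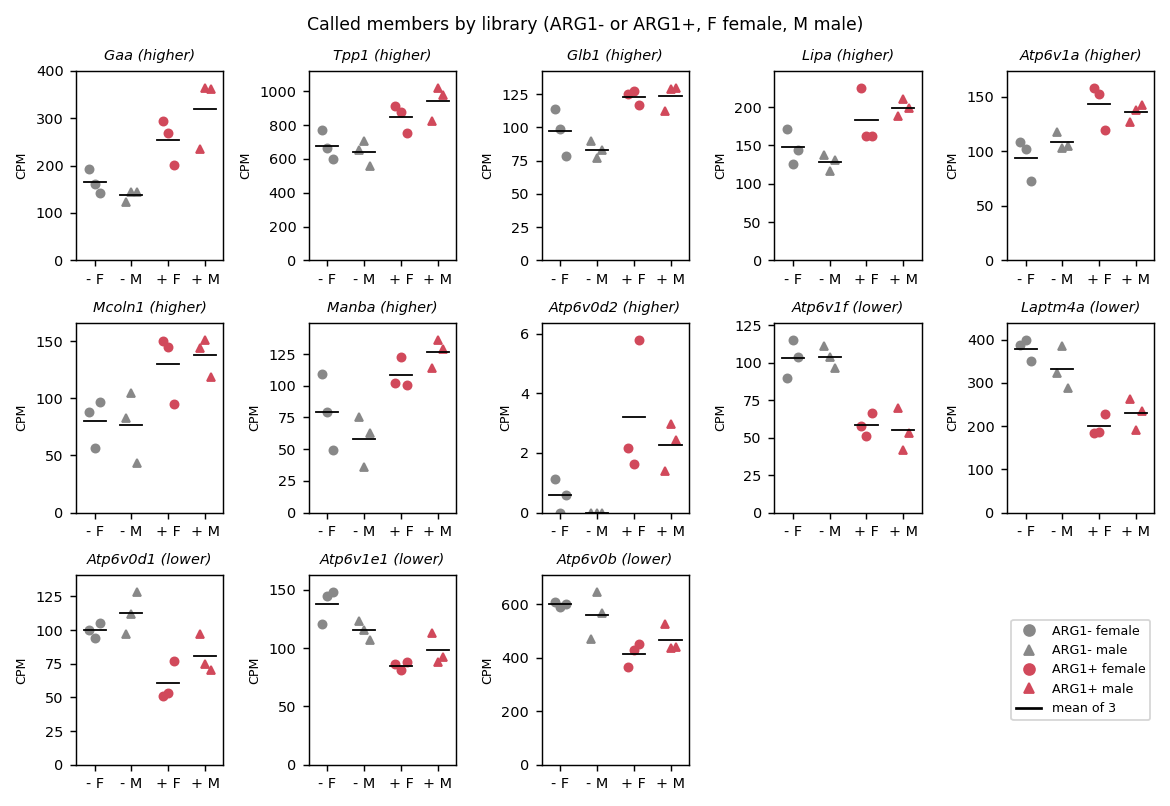
Level in CPM (linear axes from 0) of the 13 members called between the populations, by library, in ARG1- females, ARG1- males, ARG1+ females and ARG1+ males, with a bar at the mean of 3 libraries. *Gaa*, *Atp6v1a* and *Atp6v0d2* are above and *Atp6v1f* and *Laptm4a* below the ARG1- libraries in all 6 ARG1+ libraries, and the other 8 overlap.

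The members called lower tended to be shorter than those called higher, with *Atp6v1e1* (4110 bases) the longest of the lower and *Glb1* (3008 bases) the shortest of the higher apart from *Atp6v0d2* (2716 bases). The median annotated exon length was 1793 bases for the 5 lower and 5604 bases for the 8 higher members, and the same held for all genes tested, with 2341 bases for genes called lower and 5735 for genes called higher. With all genes split by exon length into 4 classes of equal size, from short to long, the median log2 fold change was -0.12, -0.10, 0.06 and 0.29. In the shortest class, 3 of 4 members were called lower and 0 higher, where 13.8% of all genes in that class were lower and 3.41% higher. In the longest, 0 of 12 members were lower and 4 higher, where 2.84% of all genes were lower and 12.7% higher. Across the 45 genes, Spearman's rho of log2 fold change with length was 0.30, and across all genes with a length it was 0.18. These are descriptions across genes measured in the same libraries. With the dependence on length and GC taken out of every library, rho was 0.05 over the members, 8 members were higher and 5 lower, *Lipa* and *Atp6v0d2* (adjusted p = 0.0645) lost their call, and *Atp6ap1* (adjusted p = 0.0227) and *Atp6ap2* (adjusted p = 0.0244) gained one. *Atp6v1f* (-0.68, adjusted p = 0.00244), *Laptm4a* (-0.61, adjusted p = 0.00372) and *Gaa* (0.86, adjusted p = 0.00169) kept theirs with a smaller difference.

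**Figure D4:**
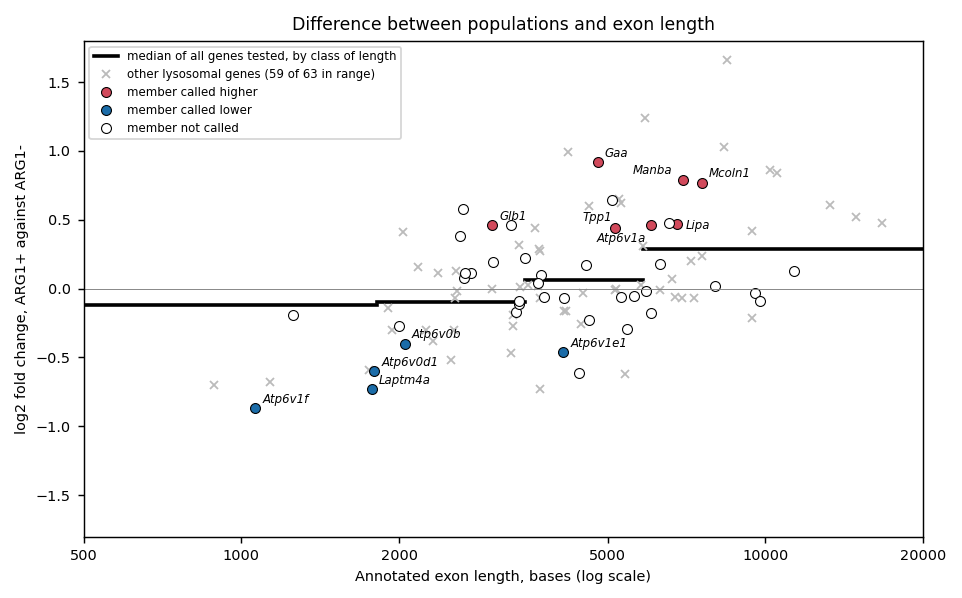
Log2 fold change of ARG1+ against ARG1- microglia against annotated exon length in bases (log axis) for 44 members (circles, red if called higher, blue if called lower) and other lysosomal genes (crosses, 59 of 63 within the vertical range), with black bars at the median of all genes tested in each of 4 classes of length, -0.12, -0.10, 0.06 and 0.29. *Atp6v0d2* and 4 other genes lie outside the vertical axis, and *Dmxl1*, at 21923 bases, lies beyond the right edge.

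A further 68 lysosomal genes, of which 63 passed the filter, show how the rest of the organelle compared. In ARG1+ microglia 9 were higher (14.3% of those tested) and 7 lower (11.1%), where 6.44% and 9.42% of all genes tested were. Together 25.4% were called, against 15.9% of all genes, and the median log2 fold change of the 63 was 0.03. Those of smallest p called higher were *Idua* (0.99, SE 0.15, adjusted p = 0.00122), an enzyme that removes iduronic acid from glycosaminoglycans, and *Tpcn1* (1.66, SE 0.33, adjusted p = 0.00553), a two-pore cation channel. *Idua* lay at 50.9 to 83.3 CPM in ARG1- and 104 to 169.5 CPM in ARG1+ libraries, and *Tpcn1* at 3.38 to 15.8 and 23.3 to 39.5 CPM, both without overlap. *Mcoln3*, a channel of the same family as *Mcoln1*, was without a count in the 6 ARG1- libraries and at least 24.1-fold higher in the ARG1+ population, against a limit of 3 counts per library (adjusted p = 0.0116), although not every ARG1+ library had a count. *Slc38a9* (0.48, adjusted p = 0.0137), an amino acid sensor of the lysosomal membrane, and *Clcn7* (0.62, adjusted p = 0.0196), a chloride–proton exchanger, followed. *Mcoln2*, at 0 CPM in every ARG1- library and up to 1.7 CPM in ARG1+ libraries, was also called higher (edgeR adjusted p = 0.0228). *Mcoln2* and *Mcoln3* passed the filter only through ARG1+ libraries, so they could be called higher but not lower. Both are among the 9.

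Those of smallest p called lower were *Atp6v0e* (-0.73, SE 0.11, adjusted p = 0.0015) and *Atp6v1g1* (-0.68, SE 0.13, adjusted p = 0.00512), small subunits of V0 and V1, *Dnase2a* (-0.62, SE 0.11, adjusted p = 0.00414), which digests DNA of engulfed cells, *Fuca1* (-0.47, SE 0.11, adjusted p = 0.0122), a fucosidase, and *Rnasek* (-0.70, SE 0.17, adjusted p = 0.0156), a small protein associated with the pump. By list, other membrane proteins counted 6 higher and 1 lower of 23, other hydrolases 2 and 3 of 19, other pump subunits 1 and 2 of 8, assembly factors of the pump 0 and 1 of 8, and receptors or enzymes that sort hydrolases 0 and 0 of 5 (3 of 5 at an unadjusted p under 0.05, and 1 in DESeq2 without a prior). Over all genes tested, 6.44% were higher and 9.42% lower. The 6 other membrane proteins called higher include *Mcoln2* and *Mcoln3*. In the pump, the subunit higher among these was *Tcirg1* (0.60, SE 0.16, adjusted p = 0.0275), the a3 isoform known from osteoclasts, at 152 to 271 CPM in ARG1- and 237 to 359.9 CPM in ARG1+ libraries. Per length, *Atp6v0a2*, the a2 isoform, was 71.1% of the sum of *Atp6v0a1* and *Atp6v0a2* in ARG1- microglia (61.4 to 76.7% by library) and 62.3% in ARG1+ microglia (58.3 to 66.7%), with overlapping libraries, and neither gene was called. *Tcirg1* was 65.8% of the sum of *Atp6v0a1* and *Tcirg1* in ARG1- microglia (60.5 to 70.1% by library) and 67.2% in ARG1+ microglia (56.5 to 73.1%), which overlap.

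To ask whether the contrast differed by sex, it was fitted within each sex from the 4 group means. In females, 2 members were higher and 7 lower (20.0%, where 6.76% of all genes tested were called), and in males 5 were higher and 1 lower (13.3%, where 5.13% were called). Those lower in females were *Atp6v1f*, *Laptm4a*, *Atp6v0d1*, *Atp6v1e1*, *Atp6v0b*, *Hexa* and *Cd68*, and those higher were *Ids* and *Atp6ap2*. In the 6 female libraries alone, *Atp6v0d1*, *Hexa*, *Cd68* and *Ids* were not called, and in the 6 male libraries alone 0 members were. In males *Gaa*, *Tpp1*, *Glb1*, *Lipa* and *Atp6v0d2* were higher. *Atp6v1f* was the member called in the same direction in both, at -0.82 in females (adjusted p = 0.0312) and -0.92 in males (adjusted p = 0.0283). The median log2 fold change over the members was -0.06 in females and 0.15 in males, and over all genes tested 0.01 and 0.04. The difference itself, male minus female, was called for 0 of 45 members in edgeR (smallest adjusted p 0.482) and for 0 in DESeq2, as it was for 0 of all genes tested in edgeR. At an unadjusted p under 0.05 it stood at 8 of 45 members, where 9.32% of all genes did. Its fitted value was above zero for 38 of the 45 members, with a median of 0.27 on the log2 scale. Over all genes it was above zero for 8776 of 16908, with a median of 0.03. The members were measured in the same libraries, so a count of signs is not a test.

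The members with the smallest p for this difference were *Atp6ap2* and *Atp6v0d2*. *Atp6ap2* had a log2 fold change of 0.70 in females (adjusted p = 0.0221) and 0.06 in males (adjusted p = 0.848), a difference of -0.63 (adjusted p = 0.482). In female libraries it ran from 314 to 352 CPM in ARG1- and from 499 to 596 CPM in ARG1+ microglia, which do not overlap, and in males from 384 to 452 and from 329.6 to 494 CPM, which do. *Atp6v0d2* was at 0 in all 3 ARG1- male libraries, so a fold within males has no stable size. Females and males differed for 0 of 45 members in ARG1- microglia in edgeR, where 0.0946% of all genes tested were called, and for 0 of 45 in ARG1+ microglia, where 0.0355% were called. DESeq2 called 1 and 0 members, and at an unadjusted p under 0.05 there were 4 and 1, beside 1692 and 528 of the 16908 genes tested (3.12% in ARG1+ microglia). In ARG1- microglia the female minus male value was above zero for 38 of 45 members with a median of 0.20. Over all genes tested it was above zero for 8729 of 16908, with a median of 0.02. In ARG1+ microglia 14 of 45 members were above zero with a median of -0.09, beside 8394 of 16908 genes with a median of 0.00. The difference by sex and these sex contrasts share the same libraries. ARG1- female 1 had the highest member sum, 35984 CPM, and ARG1- male 14 the lowest, 23224 CPM.

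**Figure D5:**
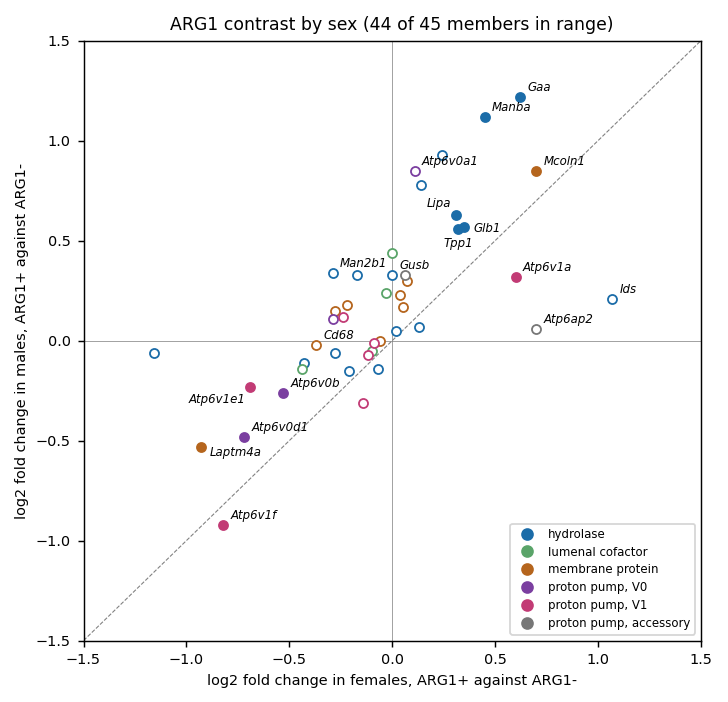
Log2 fold change of ARG1+ against ARG1- microglia in females (horizontal) and in males (vertical) for 44 of the 45 members, colored by role and filled if called over both sexes, with a dashed line where both are equal. Most points lie above the line (38 of 45 members with *Atp6v0d2*, which is outside the axes), and none of these differences passed the limit. Over all genes tested, 8776 of 16908 had a larger value in males.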

How the data were processed

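RNA-seq counts of 12 libraries of sorted YARG microglia were used, 3 for each sex and population. Per the submitters' processing notes, the authors used bcl2fastq 2.20.0, STAR 2.6.1d, featureCounts 1.5.1 and DESeq2 1.28.1 with GRCm38 (mm10). The strand setting of the counting is not given in the sources used here. The deposited values are raw counts per gene for 55487 Ensembl genes without normalization, and 0 columns were left unused. SMART-Seq v4 and Nextera XT libraries carry no molecular identifiers, so counting limits cover counting error only. Total counts ranged from 28356659 to 60625170. Replicate pairs of the same group differed by 42.9 to 134 times their degrees of freedom in a chi-square of counts, and each library was kept as 1 replicate.

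Counts were filtered with filterByExpr on the 4 groups (16908 genes kept), normalized by TMM and tested with edgeR 4.0.16 in R 4.3.3 (glmQLFit and glmQLFTest, terms for sex and ARG1 status, Benjamini–Hochberg adjustment over all genes tested, limit 0.05). Sex contrasts and the difference between them came from a fit of the 4 group means. Errors of log2 fold changes were derived from the F statistic. Symbols, positions and exon lengths came from GENCODE M21, which matched 55227 identifiers, and promoter windows from RefSeq. The scripts were tested on simulated data. The p-values measure the spread between libraries of pooled brains, which mixes animals, sorting and library preparation. The fits hold no term for litter.

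The 45 genes and the other lists were chosen with earlier results of these data known. Values are given in full for members past the limit, up to 8 in each direction, and for *Lamp1*, *Lamp2*, *Cd68*, *Grn*, *Psap*, *Npc2*, *Hexa*, *Atp6v0d1* and *Atp6v0d2*, and for up to 5 other lysosomal genes of smallest p in each direction. *Laptm5*, *Ids*, *Sgsh*, *Atp6ap2*, *Tcirg1* and *Mcoln2* were given more values after these were seen. Alternatives were RLE and upper-quartile factors, no filter, at least 10 counts in every library, DESeq2 1.42.0 (with sex as a term and no prior, or for ARG1 status with a beta prior), edgeR without the sex term, a term for libraries 13 to 16, counts thinned to 28356659, removal of each library's trend on length and GC (mgcv 1.9.3), each sex alone, and each library left out.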

Additional observations from a re-analysis of the deposited data

Results flagged for a closer look

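In each population of 6 libraries, the highest or lowest library was taken as standing apart where its gap to its neighbor, relative to the whole range, passed Dixon's 95% critical value. This held for 7 of 90 sets of 6 values, where chance gives about 4.5. *Hexa* was at 1901 CPM in ARG1- female 1, with the other ARG1- libraries between 1273 and 1473 CPM. *Gla* was at 3.28 CPM in ARG1- male 6, with the others between 7.38 and 9.45 CPM. *Atp6v1a* was at 72.5 CPM in ARG1- female 13, with the others between 102 and 118 CPM. Among ARG1+ libraries, male 11 stood above the rest for *Atp6v0c* (121 CPM, the others 92.2 to 101 CPM) and for *Atp6v1e1* (113 CPM, the others 80.9 to 92.6 CPM). ARG1+ female 15 stood above the rest for *Atp6v0d2* (5.78 CPM, the others 1.39 to 2.96 CPM) and below them for *Atp6ap1* (593 CPM, the others 669.6 to 713 CPM). In the contrast over both sexes, *Atp6v1a* (called) and *Hexa* (not called) did not change their side of the limit without these libraries. *Atp6v0d2* lost its call without ARG1+ female 15 (adjusted p = 0.0938 in edgeR), and *Atp6v1e1* kept its call without ARG1+ male 11.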

How the results depend on the processing

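No paired analysis was possible because the labels give the groups different replicate numbers. Each sex alone, with 6 libraries, gave fewer calls: 1 member higher and 4 lower in females, 0 and 0 in males, and among the other lysosomal genes 2 higher and 2 lower in females and 0 and 0 in males, where 1 gene of all tested was called. DESeq2 without a prior called 13 members higher and 5 lower, with 2141 genes higher and 1964 lower of 18671 tested beside 1089 and 1593 of 16908 in edgeR, adding *Gusb*, *Ids*, *Atp6v0a1*, *Atp6ap1* and *Atp6ap2*, and called 1 member between the sexes in ARG1- microglia. Leaving out each library in turn gave 5 to 9 members higher (5 without ARG1- female 2) and 3 to 6 lower (3 without ARG1+ female 7, ARG1+ female 8, ARG1+ male 12 or ARG1+ male 16), and 5 to 11 other lysosomal genes higher (5 without ARG1+ female 8 or ARG1+ male 12) and 4 to 7 lower (4 without ARG1+ female 8). The cause of these shifts was not tested. Over all alternatives, 0 members called in the 12 libraries changed sign, and the median of the members lay between -0.05 (females alone) and 0.15 (males alone). *Atp6v0d2* could not be fitted with at least 10 counts in every library.

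A sign change was seen in 12 members not called. *Lamp2* (-0.03) moved to 0.00 in males alone and with no filter, 0.01 with a beta prior, RLE factors or at least 10 counts, and 0.02 in DESeq2 without a prior. *Tmem175* (-0.02) moved to 0.18 in males alone, 0.01 with a beta prior or no filter, and 0.02 in DESeq2 without a prior, with RLE factors or at least 10 counts. In males alone *Laptm5* was 0.15, *Atp6v0c* 0.11 and *Atp6v1b2* 0.12, in females alone *Man2b1* was -0.28, *Naglu* -0.16 and *Psap* -0.02, and with the length and GC trend removed *Man2b1* was -0.11 and *Npc1* -0.12. Over libraries left out in turn, the log2 fold change ran from -0.10 to 0.03 for *Lamp2*, -0.14 to 0.01 for *Laptm5*, -0.07 to 0.06 for *Tmem175*, -0.11 to 0.02 for *Atp6v1b2*, -0.04 to 0.12 for *Man2b1*, -0.13 to 0.01 for *Gm2a*, -0.11 to 0.01 for *Atp6v1c1* and -0.18 to 0.09 for *Atp6v1h*. At these depths only *Atp6v0d2* among the members had libraries without a count.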
